A study of Mustela putorius furo with 8 samples.

Results

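The BMP response genes described here are 9 genes that cells commonly switch on when bone morphogenetic protein (BMP) signalling is active, chosen by symbol from the gene list of the deposited matrices: ID1, ID2, ID3, ID4, SMAD6, SMAD7, SMAD9, MSX1 and MSX2. All 9 were present among 27912 genes. They were measured by droplet single-cell RNA sequencing in polarized pancreatic ductal epithelia (PDE), cultures of ferret pancreatic duct cells held at an air-liquid interface (ALI). WT ferrets and ferrets of genotype CFTR KO/KO (called CF here) were each sampled at day 2, 5, 7 and 9 at ALI, which gave 8 libraries with 1 library per genotype and day. The cells came from newborn pancreata of 1 to 3 day old animals, had been passaged 10 times on coated dishes, and by the study's account were a pool of 3 donors per genotype, so genotype, donor pool and library cannot be told apart and no p-value could be given.

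BMP ligands bind paired type I and type II receptor kinases, which phosphorylate the signal transducers SMAD1, SMAD5 and SMAD9. These enter the nucleus with SMAD4 and activate a compact set of genes, led by the ID genes, whose products bind E proteins and keep basic helix-loop-helix factors off DNA. The same pathway switches on its own brakes, SMAD6 and SMAD7, and in many epithelia the homeobox genes MSX1 and MSX2. In the pancreas, ID proteins are known for holding duct and progenitor cells in a proliferative, less differentiated state.

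Over the 8 libraries, 32945 retained cells gave 34735952 to 114585136 unique molecular identifiers (UMIs, each 1 captured transcript) per library, with medians of 14949 to 23427 UMIs per cell. No pair of libraries shared more than 14 cell barcodes. CFTR, the gene knocked out in CF, had 753 to 2498 UMIs in WT and 256 to 621 in CF, although the study states that KO/KO ferrets have no CFTR mRNA. Its 3′ tag was not placed against the targeted part of the gene, so it does not check the labels. SOX2 had 5793 to 13124 UMIs in WT and 1 to 3 in CF. Duct epithelium markers summed to 7883 to 10364 counts per 1000000 UMIs (CPM) in WT and 9168 to 9804 in CF, whereas 7 endocrine markers summed to at most 0.126 CPM in any library. The 7 fibroblast and stellate markers summed to 2.295 to 5.791 CPM in WT and 1.539 to 30.2 CPM in CF, and the 5 leukocyte markers to 4.32 to 13.16 and 4.98 to 21.76 CPM. In the CF library of day 7, 411 of 1607 cells had fewer than 3000 UMIs. Values without the 4 clusters whose median was under 3000 UMIs stand beside the results they touch.

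For ID1, ID2 and ID3, CF was above WT at some days and below it at others, by more than counting error in both directions. ID1, an HLH protein without a DNA-binding region, had 728.5, 1080, 1070 and 453.4 CPM in WT and 1147, 1172, 770.7 and 598 CPM in CF at day 2, 5, 7 and 9. CF was thus the higher library at day 2, 5 and 9 and the lower one at day 7. The CF to WT ratios were 1.575 (counting interval at 95%: 1.561 to 1.589), 1.085 (1.076 to 1.095), 0.7202 (0.7104 to 0.7301) and 1.319 (1.299 to 1.339). These intervals, like all intervals here, cover counting error only and not the spread between animals or cultures, which 1 library per condition does not show.

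ID2, which binds E proteins in the same way, had 211.4, 280.6, 263.2 and 142.2 CPM in WT and 275.7, 328.5, 253.9 and 164.8 CPM in CF. ID3 had 701.1, 1162, 1244 and 732.4 CPM in WT and 970.2, 1129, 1020 and 868.9 CPM in CF. Both were higher in CF at day 2 and day 9. ID3 was lower in CF at day 7, with a difference of -0.29 on the log2(CPM + 1) scale used for all differences, while at day 5 its difference of -0.04 took the other sign under DESeq2 size factors (0.02), with every cell weighted equally (0.30) and without the proliferating classes (0.03). ID2 at day 7 differed by only -0.05, and by 0.09 when every cell was weighted equally. ID4, the remaining family member, is listed as a long non-coding RNA in the RefSeq table of this assembly although its mammalian counterparts encode an ID protein. It had 91.7, 165, 161 and 118.6 CPM in WT and 126.9, 232, 190.8 and 162.6 CPM in CF, and was the only ID gene that was higher in CF at all 4 days, with ratios of 1.384, 1.406, 1.185 and 1.371.

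**Figure D1:**
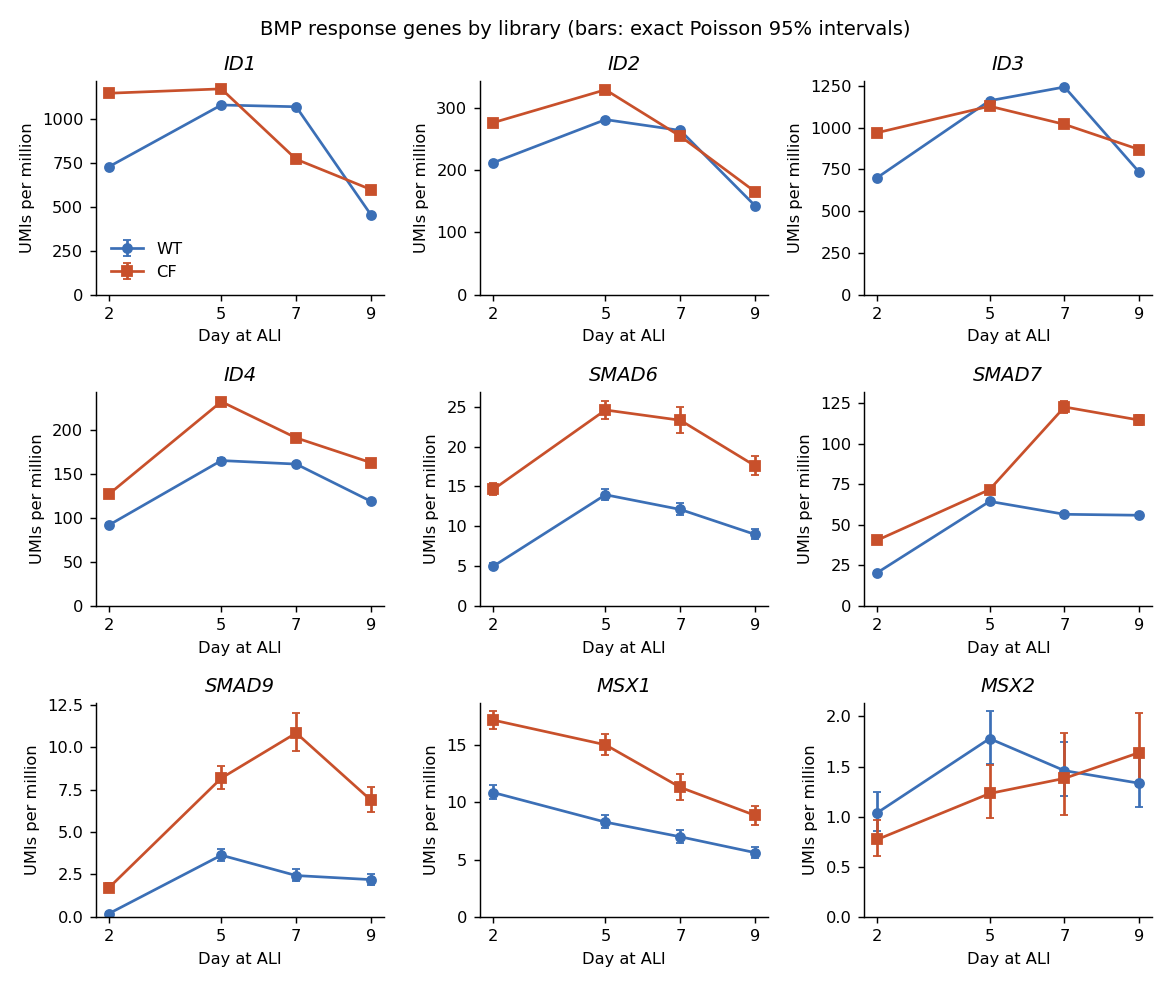
CPM of each of the 9 genes (vertical axes from 0) against day at ALI, with WT as circles and CF as squares, 1 library per point, and bars for the exact Poisson 95% interval. CF lies above WT at all 4 days for ID4, SMAD6, SMAD7, SMAD9 and MSX1, while the lines of ID1, ID2, ID3 and MSX2 cross.

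Over all cells, the inhibitory SMADs were higher in CF at every day. SMAD6, which blocks BMP receptors and binds SMAD1 in competition with SMAD4, had 4.948, 13.95, 12.1 and 8.952 CPM in WT and 14.61, 24.61, 23.32 and 17.58 CPM in CF. The lowest CF value, at day 2, was above the highest WT value, at day 5, but their counting intervals overlapped (13.88 to 15.37 and 13.24 to 14.7 CPM). Its ratios were 2.952 (2.679 to 3.258), 1.764 (1.643 to 1.893), 1.927 (1.754 to 2.116) and 1.963 (1.78 to 2.166). SMAD7, which brakes both the BMP and the TGF-beta branch, had 20.39, 64.4, 56.42 and 55.83 CPM in WT and 40.44, 71.69, 122.7 and 114.6 CPM in CF. At day 5 the libraries were close, with a ratio of 1.113 (1.073 to 1.155), and at day 2, 7 and 9 CF had about the same excess, with ratios of 1.984, 2.175 and 2.052. The day 7 difference of 1.11 was 1.103 without the clusters whose median was under 3000 UMIs.

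SMAD9, a BMP signal transducer that is itself a BMP target, was the member with the widest relative gap. It had 22 UMIs at day 2 in WT, or 0.192 CPM, followed by 3.637, 2.435 and 2.194 CPM, against 1.72, 8.185, 10.85 and 6.879 CPM in CF. The ratios were 8.958 (5.734 to 14.66), 2.251 (1.972 to 2.571), 4.457 (3.747 to 5.315) and 3.135 (2.616 to 3.768). On the log2(CPM + 1) scale, which understates changes of such low values, these were differences of 1.19, 0.99, 1.79 and 1.30.

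Of the homeobox genes, MSX1, a repressor that marks BMP-exposed epithelium and mesenchyme, had 10.86, 8.272, 6.991 and 5.603 CPM in WT and 17.19, 15.03, 11.31 and 8.858 CPM in CF. It was higher in CF at all 4 days by a similar factor of 1.583, 1.817, 1.618 and 1.581. MSX2 was near the limit of what the depth allowed, with 0.772 to 1.779 CPM in any library. Its ratios were 0.7434 (0.5521 to 0.9963), 0.6921 (0.5302 to 0.898), 0.9474 (0.6636 to 1.334) and 1.23 (0.9143 to 1.649), so a difference at day 7 and 9 was not detectable at this depth.

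A gene was counted as called when CF and WT differed by at least 2-fold on the log2(CPM + 1) scale, and the background was all genes with at least 30 UMIs over both libraries. At day 2, 2 of the 9 members (SMAD6 and SMAD9) were called higher in CF, where 4.09% of 13974 genes were. At day 5 none was, where 2.41% of 14206 genes were, with SMAD9 (0.99) just short. At day 7 and at day 9, 2 members (SMAD7 and SMAD9) were, against 5.15% of 13818 and 3.67% of 13992 genes. No member was called lower in CF at any day, where 4.37%, 4.62%, 3.4% and 3.9% of genes were. The median member difference was 0.62, 0.23, 0.24 and 0.45, and the median over all genes was -0.01, -0.05, 0.12 and 0.07. Under edgeR TMM factors the whole distribution shifted by -0.19 at day 7 and -0.12 at day 9, the members' medians became 0.04 and 0.33, and 1 member rather than 2 was called higher in CF at each of these days. With a pseudocount of 5 CPM, which shrinks differences of low values, 0 members were called at day 2 and at day 9, and without CF cluster 11 (401 cells led by collagen and contractile genes) SMAD7 lost its call at day 9 (0.90).

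Within each genotype the members did not follow 1 time course. SMAD7 was 1.41 higher at day 9 than at day 2 in WT and 1.48 higher in CF, and SMAD9 was 1.42 and 1.53 higher. These were the 2 members called higher at day 9 in each genotype, where 8.3% of 14116 genes in WT and 6.98% of 13775 genes in CF were. None was called lower, where 5.38% and 2.89% of genes were. Under TMM factors, however, MSX1 in WT and ID1, ID2 and MSX1 in CF were called lower, and under DESeq2 size factors ID1 and MSX1 in CF. SMAD7 had reached its WT level by day 5, at 64.4 CPM, whereas in CF it went from 71.69 to 122.7 CPM between day 5 and day 7. MSX1 was lower at each later day in both genotypes, to a day 9 minus day 2 difference of -0.84 in WT and -0.88 in CF. ID1 and ID2 ended below their day 2 level in both, with ID1 differing by -0.68 in WT and -0.94 in CF and ID2 by -0.57 and -0.74. The route differed: in WT, ID1 stayed at 1080 and 1070 CPM through day 5 and day 7 and differed by -1.24 between day 7 and day 9, whereas in CF it differed by -0.60 between day 5 and day 7 and by -0.37 between day 7 and day 9. ID3 and ID4 peaked at day 5 or day 7 and differed little from end to end, by 0.06 and -0.16 for ID3 and 0.37 and 0.36 for ID4 (WT first). The ID3 difference in WT took the other sign under TMM (-0.13).

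WT cells were not uniform in these genes, and the summed levels of several differed between clusters of low and high SOX2. SOX2, a transcription factor of stem and foregut epithelium, was at most 4.869 CPM in 12 of the 41 deposited WT clusters and at least 50.57 CPM in the other 29, and a boundary of 10 CPM, chosen with the values known, separates these SOX2-low and SOX2-high clusters. Neither set is a condition of the study. The authors clustered the cells on variable genes, which may include members. SOX2-low clusters made up 892 of 6224 WT cells at day 2, 1801 of 5326 at day 5, 1276 of 4634 at day 7 and 1510 of 5416 at day 9. ID1 stood at 1489, 2063, 1957 and 917.7 CPM in SOX2-low cells and at 616.8, 247.5, 603 and 250.2 CPM in SOX2-high cells. The gap was widest at day 5, with a ratio of 8.336, so that 87.6% of the ID1 UMIs of that WT library came from SOX2-low cells. ID3 had 1609, 1994, 2087 and 1575 CPM in SOX2-low cells and 567.6, 456.9, 800.3 and 363.6 CPM in SOX2-high cells. ID2 was 2.156, 3.418, 2.208 and 1.661 times as high in SOX2-low cells. These values are sums over cells, and single clusters of at least 50 cells overlapped between both sets. ID1 ran from 545.3 to 2666 CPM over SOX2-low clusters and from 122.8 to 1136 CPM over SOX2-high clusters. For ID3 the ranges were 464.9 to 2985 and 91.79 to 1954 CPM.

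Most SMAD9 UMIs of WT came from SOX2-low cells, which held 68.2%, 93.5%, 90.1% and 78.0% of them, at 1.021, 7.415, 6.359 and 5.616 CPM against 0.0701, 0.438, 0.368 and 0.695 CPM in SOX2-high cells. SMAD6 was 3.087, 2.957, 2.192 and 2.545 times as high in SOX2-low cells. ID4 did not follow this split, with ratios of 1.068, 1.331, 1.126 and 1.036, and neither did MSX2, with 0.9069, 0.8829, 1.085 and 1.025. SMAD7 was higher in SOX2-low cells at day 2 (38.06 against 17.79 CPM) and day 9 (87.81 against 41.82 CPM), but lower at day 5 (51.3 against 75.48 CPM) and day 7 (52.2 against 58.65 CPM). In all, 5, 6, 5 and 5 of the 9 members were called higher in SOX2-low than in SOX2-high cells at day 2, 5, 7 and 9, where 4.8%, 7.49%, 5.57% and 5.52% of genes were.

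Whether CF cells had more or less ID1, ID2 and ID3 than WT cells depended on which WT cells they were set against. CF cells, whose clusters hold almost no SOX2, lay between both WT sets in all 3 genes at all 4 days. Against SOX2-low WT cells, ID1 in CF differed by -0.38, -0.82, -1.34 and -0.62, ID2 by -0.52, -0.47, -0.69 and -0.25, and ID3 by -0.73, -0.82, -1.03 and -0.86. Against SOX2-high WT cells, the ID1 differences were 0.89, 2.24, 0.35 and 1.25, and those of ID3 were 0.77, 1.30, 0.35 and 1.26. SMAD6, SMAD9, ID4 and MSX1 behaved otherwise, since CF was above both WT sets at all 4 days. The excess over SOX2-low cells was 0.17 to 0.30 for SMAD6, 0.13 to 0.69 for SMAD9, 0.13 to 0.42 for ID4 and 0.13 to 0.36 for MSX1. For SMAD9 at day 7 it was a ratio of 1.707 (1.426 to 2.048). The counting intervals of the ratio included 1 for SMAD9 at day 2 (0.9936 to 3.073) and day 5 (0.9646 to 1.265) and for MSX1 at day 7 (0.9445 to 1.285). SMAD7 in CF differed from SOX2-low WT cells by 0.09, 0.48, 1.22 and 0.38, where the day 2 ratio of 1.062 (0.9724 to 1.163) could not be told from 1. Its day 7 difference was as large there as against all WT cells. Against SOX2-high WT cells its day 5 difference turned to -0.07, with a ratio of 0.9498 (0.9115 to 0.9897). Against SOX2-low cells, 0, 0, 1 and 0 members were called higher in CF, where 2.54%, 4.35%, 7.07% and 3.2% of genes were, and 0, 0, 2 and 0 lower, where 1.94%, 3.37%, 2.77% and 1.9% were. SMAD7 was the member called higher at day 7, and ID1 and ID3 were those called lower. Against SOX2-high cells, 3, 6, 3 and 5 members were called higher in CF, where 5.36%, 5.67%, 7.15% and 6.66% of genes were.

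**Figure D2:**
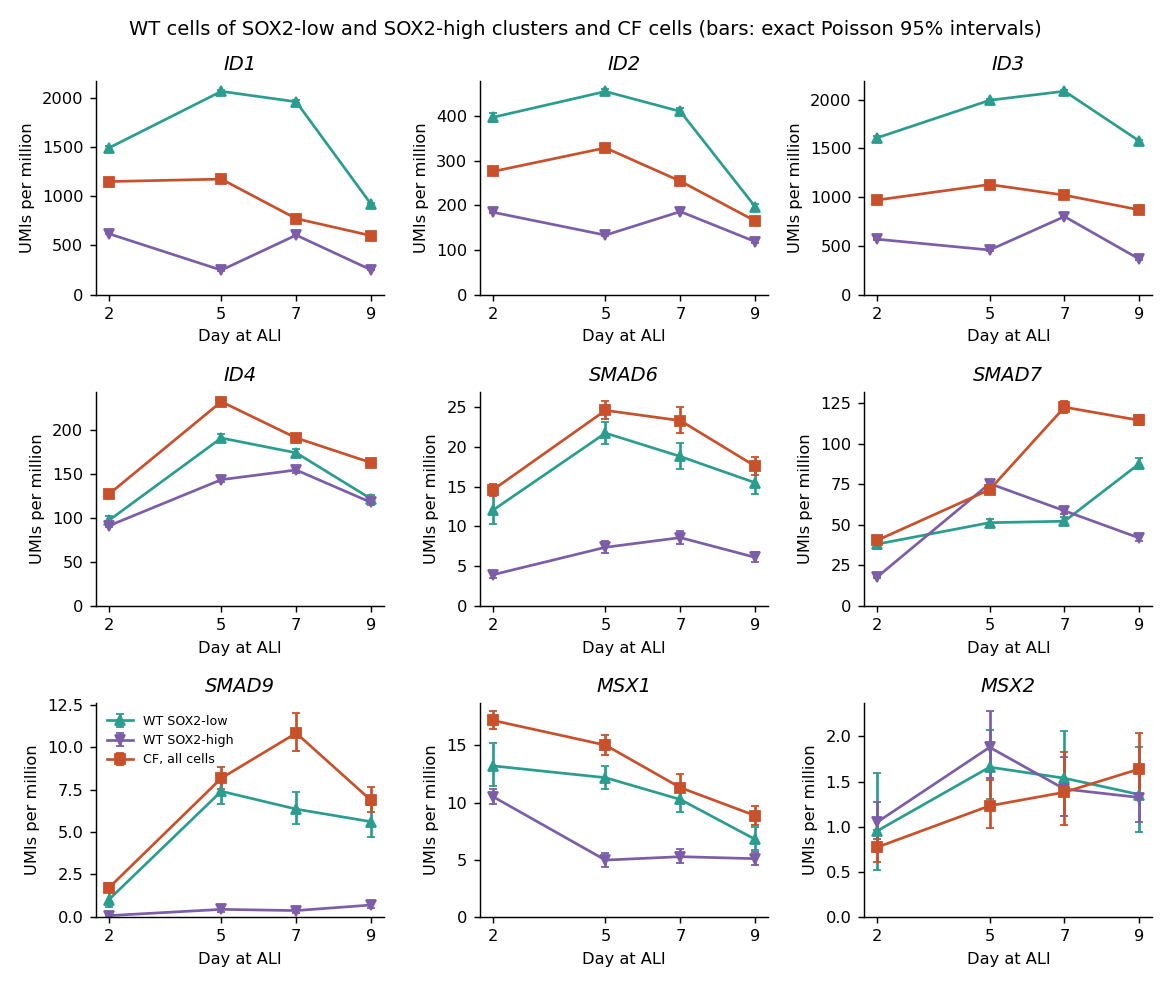
CPM of each member (vertical axes from 0) by day at ALI in WT cells of SOX2-low clusters (upward triangles), WT cells of SOX2-high clusters (downward triangles) and all CF cells (squares), with exact Poisson 95% intervals. For ID1, ID2 and ID3 the CF squares run between both WT lines. For SMAD6 they run close above the SOX2-low line, and for SMAD9 above it, at 10.85 against 6.359 CPM at day 7.

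The deposited cell classes gave a second view, which overlaps with the SOX2 split. Every WT progenitor cluster is SOX2-high. Of the WT centroacinar clusters only 30 and 38 are SOX2-low, and the remaining SOX2-low clusters are ductal or proliferating ductal. CF progenitors were thus compared with SOX2-high WT cells alone, and the part of this split in the class differences was not tested. The authors named clusters on the WT and on the CF cells separately, so by design no deposited cluster held cells of both genotypes. A class therefore always rests on different clusters in CF and WT. Clusters with more markers of a different class than of their own among their leading genes, or with very few UMIs and no marker of their own, were left out, which kept 58 of 71. Of these 58, 44 had none of their class's markers among their 10 leading genes, CF cluster 4 and WT cluster 13 included, so the class names are used as deposited and were not supported by such markers in most clusters. One kept centroacinar cluster, CF cluster 11 (401 cells), is led by ACTA2, COL1A1, COL1A2, TAGLN and FN1, genes of collagen matrix and contractile cells, so values without it are given where they differ in sign or call. Centroacinar progenitors, the cells at the mouth of the acinus to which progenitor function is ascribed, had more ID1 and ID3 in CF at all 4 days. At day 2, ID3 was at 102 CPM in WT progenitors (711 cells, 682 of them in WT cluster 13) and at 733.5 CPM in CF progenitors (614 cells, 613 of them in CF cluster 4), a ratio of 7.19 (6.818 to 7.587). ID1 was at 207.8 and 1214 CPM in the same cells. ID3 in progenitors was at 232.5, 371.6 and 207.8 CPM in WT and 759.4, 596.4 and 685.5 CPM in CF at day 5, 7 and 9, where CF clusters 17, 18 and 18 and WT clusters 10, 18 and 21 were the largest. MSX1 was 1.28, 1.26, 1.73 and 1.66 higher in CF progenitors over the 4 days. ID4 did not share this, at 0.70, -0.05, -0.56 and 0.26, with 118.7 CPM in CF and 175.3 CPM in WT progenitors at day 7. In progenitors 5, 6, 1 and 6 members were called higher in CF, where 7.87%, 7.16%, 8.5% and 7.01% of genes were. The count at day 9 includes SMAD9, with 17 CF and 6 WT UMIs, fewer than the 30 asked of background genes. With every cluster put back, among them WT cluster 1 (1072 cells), the counts were 5, 7, 3 and 6, where 7.84%, 6.87%, 8.37% and 7.14% of genes were. SMAD9 was again counted below that limit, with 11 CF and 6 WT UMIs at day 7 and 17 and 8 at day 9. ID3 at day 5 was then 2.27 higher in CF rather than 1.70.

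In centroacinar cells, SMAD7 was at 38.5, 57.1 and 24.86 CPM in WT and 104.4, 174.9 and 128 CPM in CF at day 5, 7 and 9. SMAD9 was at 0.993, 0.859 and 1.124 CPM in WT, from 13, 10 and 39 UMIs, and at 11.68, 15.27 and 7.082 CPM in CF. Both were higher in CF at each of these days, by 1.42, 1.60 and 2.32 for SMAD7 and 2.67, 3.13 and 1.93 for SMAD9. ID1 was higher in CF at day 5 (1172 against 307.2 CPM) and day 9 (560.2 against 244.1 CPM), and at day 7 the ratio of 0.9771 (0.9529 to 1.002) could not be told from 1. Without CF cluster 11 the ID1 difference at day 7 was 0.12, and SMAD7 still differed by 1.41, 1.64 and 2.20. CF cluster 3 (673 cells), with SPP1, SPARC and VCAN among its leading genes and SMAD7 at 204.4 CPM, remained in these values. The largest clusters here were CF clusters 0, 16 and 3 and WT clusters 7, 12 and 3. Of the 9 members, 8, 3 and 5 were called higher in CF, where 8.66%, 8.76% and 10.3% of genes were, and the counts were the same without CF cluster 11.

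Ductal cells ran the other way in part. ID1 in ductal cells was at 877.3, 1441, 1433 and 735.4 CPM in WT and 1373, 1183, 770.4 and 1128 CPM in CF, which put CF above WT at day 2 and 9 and below it at day 5 and 7. ID3 was at 887.8, 1582, 1843 and 1463 CPM in WT and 1238, 1059, 873.2 and 796.6 CPM in CF, with CF lower at day 5, 7 and 9 (differences of -0.58, -1.08 and -0.88). SMAD7 was 1.14 higher in CF ductal cells at day 2 and differed by -0.81, -0.46 and -0.54 later, while ID4 and MSX1 were above WT at all 4 days. SMAD6 was 1.57 higher in CF ductal cells at day 2, and its ratios later had intervals that included 1. In ductal cells 3, 0, 0 and 2 members were called higher in CF, where 3.63%, 3.79%, 4.98% and 5.06% of genes were, and 0, 0, 2 and 1 lower, where 3.6%, 6.97%, 9.8% and 13.9% were. The lower calls were ID3 and MSX2 at day 7 and MSX2 at day 9, and MSX2 had 0 UMIs in CF ductal cells at both days. At day 9 the interval of its ratio ran from 0 to 1.793, so that this call rests on a count of 0 in 51 cells and a difference was not detectable at this depth. With every cluster put back, 3 members, ID1 among them (-1.09), were called lower at day 7, where 12.6% of 12518 genes were. ID3 differed by -1.67 at day 7 and -1.74 at day 9. In the same comparison SMAD7 differed by -1.36, MSX2 by -0.51 and ID1 by -0.09 at day 9, ID4 by -0.13 at day 7 and 0.11 at day 9, and SMAD7 by 0.72 at day 2. The largest clusters were CF clusters 2, 12, 12 and 26 and WT clusters 4, 2, 14 and 8. The CF values of day 7 and day 9 rest on 88 and 51 cells, while WT had 2232 and 2001, of which WT cluster 8, the largest at day 9, is SOX2-low.

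**Figure D3:**
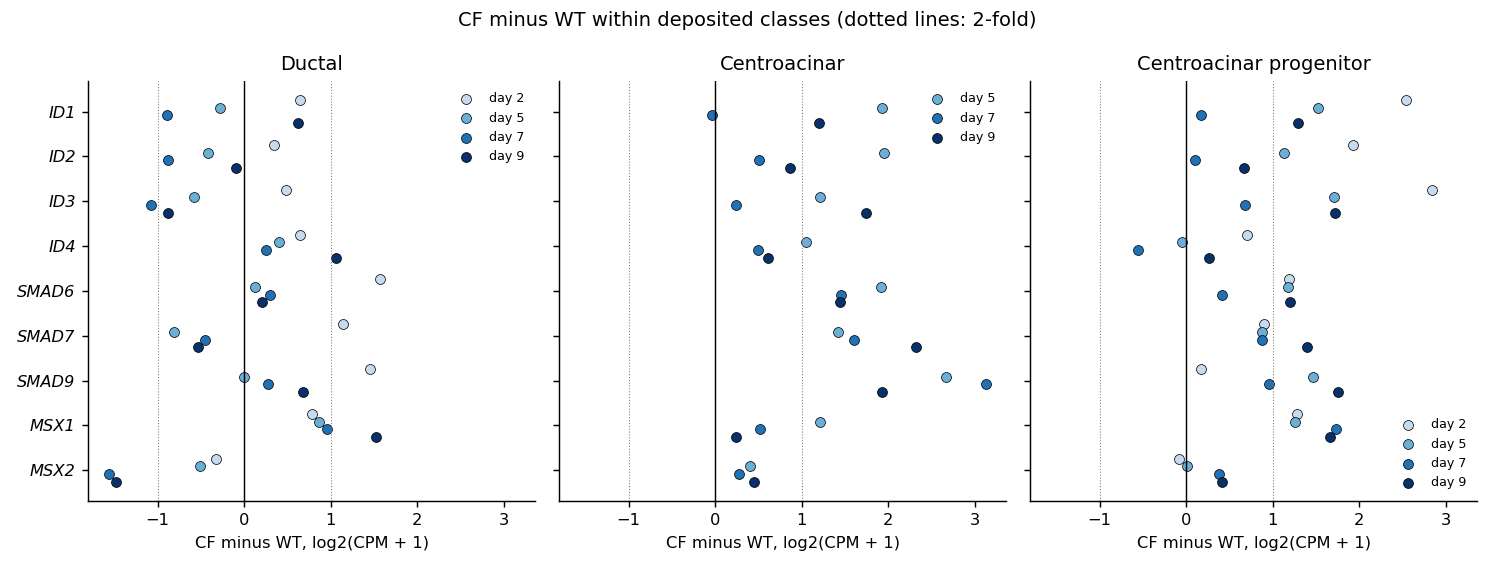
CF minus WT differences on the log2(CPM + 1) scale (horizontal axis) for the 9 members in ductal, centroacinar and centroacinar progenitor cells, 1 point per day with at least 50 cells in both libraries, darker with time, and dotted lines at 2-fold. In progenitors the ID1 and ID3 points lie right of 0, by up to 2.54 and 2.83 at day 2, whereas in ductal cells the ID3 points of day 5, 7 and 9 lie left of 0.

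Across the 68 clusters of at least 50 cells, ID1 ran from 122.8 CPM in WT cluster 7, a centroacinar cluster, to 2666 CPM in WT cluster 0, a SOX2-low ductal cluster. WT cluster 0 was also the highest of all in ID2 (570.7 CPM) and ID3 (2985 CPM). Among CF clusters, ID1 was highest in ductal cluster 2 (1984 CPM) and lowest in centroacinar cluster 7 (220.8 CPM), which was also the lowest CF cluster in ID2, ID3 and ID4. ID4 was highest in CF cluster 0, a centroacinar cluster, at 444.3 CPM. SMAD6 peaked at 44.44 CPM in CF cluster 16, a centroacinar cluster, and was lowest at 2.536 CPM in WT cluster 13, a progenitor cluster that was the lowest in SMAD7 as well (4.071 CPM).

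SMAD7 stood highest in 4 clusters of few UMIs per cell. CF clusters 23 and 27 had 393.8 and 392.5 CPM at medians of 3246 and 4718 UMIs, and WT clusters 38 and 20 had 326.2 and 285.9 CPM at medians of 2726 and 3398 UMIs. COL7A1, an anchoring collagen of basement membranes, was among the leading genes of CF cluster 23 and WT cluster 20. SMAD9 also had its highest value, 43.13 CPM, in CF cluster 27. These clusters were not kept under their class name and so enter the class values above only where every cluster was put back. The part of depth in their levels was not tested. Among clusters with a median of at least 5000 UMIs, SMAD7 reached at most 223.4 CPM in CF cluster 16, followed by 204.4 CPM in CF cluster 3.

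**Figure D4:**
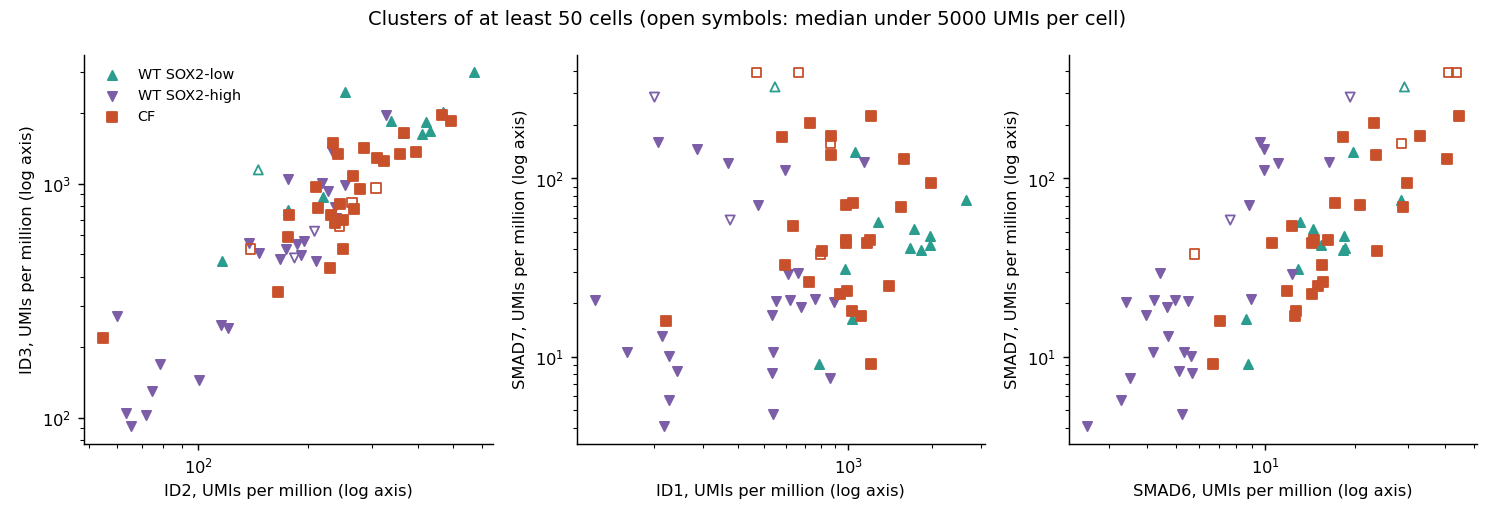
Levels per cluster in CPM on log axes, 1 symbol per cluster of at least 50 cells (WT SOX2-low upward triangles, WT SOX2-high downward triangles, CF squares), with open symbols for clusters of a median under 5000 UMIs per cell. ID2 and ID3 lie along 1 diagonal in all 3 sets, ID1 and SMAD7 form a cloud, and the highest SMAD7 values belong to open symbols.

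The members did not vary as 1 block over clusters. Pearson's r of log2(CPM + 1) was 0.920 over 39 WT clusters and 0.841 over 29 CF clusters for ID2 and ID3, and 0.824 and 0.758 for ID1 and ID2. SMAD6 went with SMAD9 (0.808 and 0.843) and with SMAD7 (0.767 and 0.833). ID1 and SMAD7 were hardly related, at 0.191 and -0.053, and MSX1 and SMAD7 at 0.159 and -0.386. Clusters share libraries and differ in depth, so these are descriptions over clusters. Leaving out the 4 clusters whose median was under 3000 UMIs gave 0.935 and 0.837 for ID2 and ID3 and 0.222 and -0.056 for ID1 and SMAD7.

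Of 9970 genes, the 3 most like each of 8 members over clusters were taken by the smaller of both r values. MSX2, which did not reach 10 CPM in any of these clusters, was left out. Fellow members appeared for ID1, ID2 and ID3. ID2 was the nearest to ID1 (0.758), ahead of GPI, a glycolytic enzyme (0.752), and FAM110C (0.711). ID3 was the nearest to ID2 (0.841), followed by GLIS1 (0.80) and the AP-1 subunit JUNB (0.792). ID2 headed the ID3 list in turn, with BTG1, an antiproliferative factor (0.832), and SINHCAF (0.831) next. SMAD7 had the closest partners of any member: COL18A1, a basement membrane collagen, at 0.971, TRAM2 at 0.962 and NCKAP5 at 0.947. SMAD6 was most like FGF1 (0.852), PDK4 (0.825) and BCOR (0.822), and SMAD9 most like SLC16A12 (0.854), the sodium channel subunit SCNN1G (0.848) and PRRX2 (0.825). ID4 was most like the splicing factor SRSF5 (0.682), OSGIN2 (0.671) and TGIF1, a repressor of SMAD transcription (0.653). MSX1 was most like LOC101679204 (0.760), JADE2 (0.759) and ZNF296 (0.747).

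The share of cells with at least 1 UMI was compared after thinning each cell to 3000 UMIs, which left out 39 to 411 cells per library. ID1 was then detected in 70.0%, 57.8%, 69.5% and 47.4% of cells in WT, against 86.8%, 87.8%, 76.4% and 68.2% in CF. CF had the larger share at all 4 days, also at day 7, where its CPM was the lower. No order is read from that day. Mean UMIs per ID1-positive cell at day 7 were 4.356 in WT and 3.182 in CF. SMAD7 was detected in 5.60%, 17.8%, 15.4% and 13.8% of cells in WT, against 12.8%, 20.6%, 29.8% and 30.8% in CF, and SMAD9 in 0.0651%, 0.985%, 0.658% and 0.739% against 0.583%, 2.55%, 3.09% and 2.12%. Without thinning, ID1 was found in 91.9%, 77.9%, 87.5% and 71.2% of cells in WT, against 98.1%, 99.0%, 86.3% and 89.9% in CF. SMAD7 was then found in 27.2%, 53.9%, 46.6% and 37.7%, against 49.3%, 70.2%, 64.0% and 66.3%. All 6 deposited classes have epithelial names, although CF cluster 11 within them is led by collagen and contractile genes. No class is known to lack the members, so no background share from free RNA could be set beside these shares.

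ID genes tended to be detected in the same cells. Among thinned WT cells with an ID1 UMI, 77.0%, 80.8%, 80.5% and 67.2% also had ID3, and among those without, 46.7%, 49.7%, 49.8% and 40.4% did. In CF the shares were 86.7%, 88.1%, 85.3% and 80.1% with ID1 and 68.4%, 79.4%, 73.4% and 58.8% without. For SMAD7 the shares with and without an ID1 UMI were 6.44% and 3.64% at day 2, 16.8% and 19.2% at day 5, 15.7% and 14.7% at day 7 and 18.4% and 9.65% at day 9 among WT cells. Among CF cells they were 13.1% and 11.1%, 20.7% and 20.0%, 32.1% and 22.3%, and 34.5% and 22.9%. The gap was thus seen at day 9 in both genotypes and was narrow or turned at day 5.

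The rest of the pathway was read from a list of 59 genes by role, of which 56 were in the files and 35 had at least 30 UMIs over both genotypes at every day. Of these 35, 5, 4, 6 and 5 were called higher in CF at day 2, 5, 7 and 9, and 3, 3, 1 and 4 lower, against 4.09%, 2.41%, 5.15% and 3.67% of all genes higher and 4.37%, 4.62%, 3.4% and 3.9% lower. Only 3 were called higher at all 4 days (GDF6, DLX5 and TBX3) and 0 lower, where 1.17% and 1.56% of 13345 genes were.

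Of the ligands, GDF6, a BMP-family ligand of skeletal and eye development, had 2.365, 5.445, 5.051 and 3.267 CPM in WT and 20.4, 21.14, 19.72 and 23.48 CPM in CF. The WT and CF values did not overlap over the days, which are not replicates. BMP3, a ligand that opposes the others, was higher in CF than in all WT cells by 2.37, 0.99, 0.95 and 0.47, whereas against SOX2-low WT cells it differed by -0.22, 0.02, -0.36 and -0.96. BMP2, a main activating ligand, was at 50.97 to 113.8 CPM in WT and 89.77 to 185.5 CPM in CF. Its differences of 0.80, 0.31, 0.66 and 0.71 became 0.07, 0.21, 0.85 and 0.01 against SOX2-low WT cells. BMP4 was at 1.433 to 2.265 and 0.371 to 0.662 CPM. BMP4 differed by -1.07, -0.72, -0.59 and -1.10, and by -0.11, 0.00, 0.09 and -0.22 when WT was limited to SOX2-low cells. Among receptors, the type I receptor gene BMPR1B differed between CF and WT by -1.51, -2.06, -0.48 and -1.125, with values of -0.35, -0.74, 0.53 and 0.14 when only SOX2-low WT cells were used, while the type II receptor gene BMPR2 was higher by 0.46, 0.36, 1.15 and 0.62. SMAD5, a signal transducer, was higher by 0.59, 0.49, 0.95 and 0.72 (0.01, 0.16, 0.50 and 0.15 when set against SOX2-low WT cells), and SMAD1 by 0.35, 0.36, 0.06 and 0.15.

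Among secreted antagonists and binders, FSTL1, a follistatin-like protein that binds BMP ligands, had 0.122, 0.178, 0.181 and 0.413 CPM in WT and 0.303, 1.483, 22.28 and 27.29 CPM in CF, so that it was high only in the CF libraries of day 7 and 9, the same libraries in which SMAD7 exceeded 100 CPM. COL1A1, a fibroblast marker, had 4.486, 0.08395, 18.94 and 13.18 CPM in CF and at most 0.6523 CPM in WT, and its part in the FSTL1 level was not tested. Without CF cluster 11, which COL1A1 helps to define, SMAD7 differed between CF and WT by 1.06 at day 7 and by 0.90 at day 9, where it was then no longer called. FST, which traps activins and some BMPs, differed by -1.19 at day 2 and by 0.50, 0.90 and 1.68 later, and by -0.57, 0.88, 1.41 and 0.69 with SOX2-low WT cells alone. Of the intracellular brakes, SKIL, a SMAD corepressor, was higher in CF by 1.47, 0.71, 0.96 and 0.74, and TOB1, an antiproliferative SMAD binder, differed by -0.07, -0.92, -1.03 and -1.16. Against SOX2-low WT cells neither passed 2-fold at any day, with SKIL at 0.12, 0.49, 0.68 and 0.28 and TOB1 at 0.08, -0.63, -0.68 and -0.49. Of 5 other BMP targets, DLX5, a homeobox gene, had 1.693, 1.443, 1.374 and 0.979 CPM in WT and 8.785, 10.31, 9.961 and 9.438 CPM in CF. TBX3, a T-box repressor, had 1.719, 2.046, 2.314 and 2.854 CPM in WT and 5.6, 9.556, 13.07 and 12.28 CPM in CF. DLX5 and TBX3 were the only targets of these 5 called between CF and all WT cells at any day. The median difference of the 5 was 0.51, 0.55, -0.01 and 0.01 at day 2, 5, 7 and 9. DLX5 and TBX3 were also called higher in CF against SOX2-low WT cells at all 4 days, by 1.34 to 2.87, whereas GDF6 passed 2-fold only at day 9 (0.43, 0.81, 0.53 and 1.20).

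**Figure D5:**
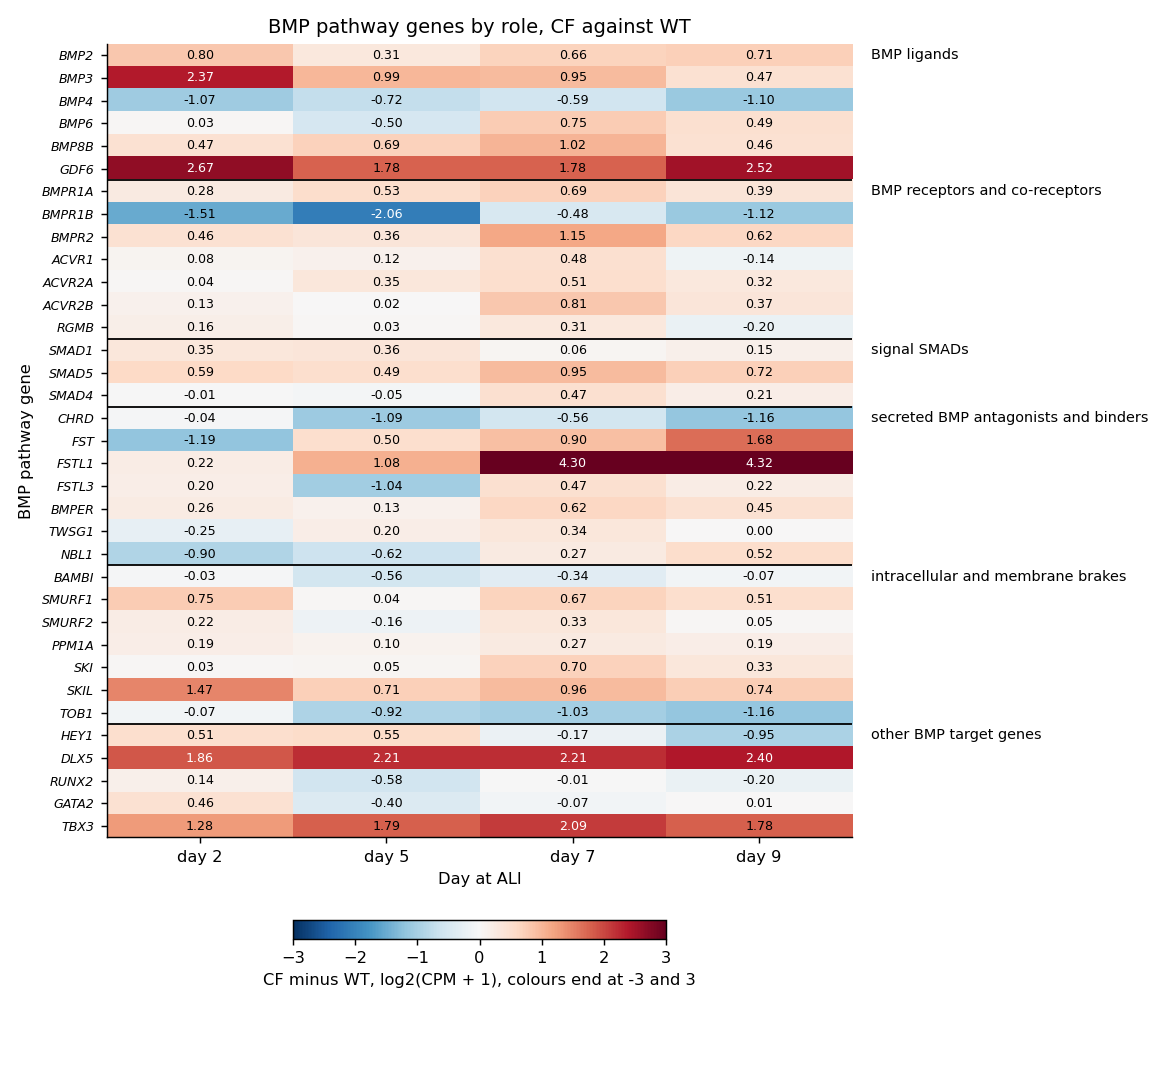
CF minus WT differences on the log2(CPM + 1) scale for the 35 listed BMP pathway genes with enough UMIs, in rows grouped by role, with days in columns and the value printed in each cell (colours end at -3 and 3). GDF6, DLX5 and TBX3 are above 1 at all 4 days, and FSTL1 reaches 4.30 and 4.32 at day 7 and 9.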

How the data were processed

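Cell Ranger 5.0.1 counts against ferret assembly ASM1176430v1.1, R 4.1.2 and Seurat are named in the study's methods and the submitters' processing notes. The deposited matrices hold whole-number UMI counts per gene and barcode, and the deposited metadata give cluster, class, UMI counts and percent mitochondrial reads of the cells that the authors kept after their filters and doublet removal. Of 44243 barcodes, 32945 were kept. Their UMI totals matched the metadata within 0.1% in 32868 cells. Counts were summed per library, class or cluster and divided by the total (CPM, counts per 1000000). Differences were taken as log2(CPM + 1). With 1 library per condition no count model was fitted and edgeR 4.0.16 only supplied TMM factors. Intervals were exact Poisson, exact conditional binomial for ratios and Clopper-Pearson for shares, at 95%, from scipy 1.17.1. The 2-fold calls and the ratio intervals were tested on a simulated pair of libraries with Poisson counts, which lack the spread between cells or animals. The other steps were not tested in this way. Class comparisons left out clusters with more markers of a different class than of their own among the 10 genes of highest fold, and those with none of their own and a median depth below 0.333 of the library's.

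The members, pathway lists and boundaries were chosen with earlier results of these data known. Named genes were the 9 members in every library, listed genes at least 2-fold apart in 1 direction at all 4 days, otherwise the 2 of largest mean absolute difference per list, and the 3 genes most like each member with at least 10 CPM in at least 10 clusters. BMP2, BMP3 and BMP4 were added for their roles after their values were seen. TCF3 and TCF12, the other listed E proteins, and COL1A1 were also named outside this rule. The normalized expression table and lineage scores were not used.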

Additional observations from a re-analysis of the deposited data

Results flagged for a closer look

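For ID1, ID2 and ID3 the direction of the difference between genotypes changed with the day, with counting intervals that excluded equality in both directions, and this change between days was not tested. ID1 differed between CF and WT by 0.65 at day 2, 0.12 at day 5, -0.47 at day 7 and 0.40 at day 9 on the log2(CPM + 1) scale. ID2 differed by 0.38, 0.23, -0.0518 and 0.21, and ID3 by 0.47, -0.0415, -0.29 and 0.25. These signs depended on the WT cells compared. All 3 genes were below WT at all 4 days against SOX2-low cells and above WT at all 4 days against SOX2-high cells. Other alternatives turned ID1 at day 5 (-0.0278 in kept clusters), ID2 at day 7 (0.0919 with equal cell weights) and ID3 at day 5 (0.0206 to 0.437 under 4 alternatives). MSX2 also changed sign, from -0.20, -0.32 and -0.05 to 0.18, but its intervals at day 7 and 9 included equality.

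ID3 stood out further because its day 9 level was 0.0628 above day 2 in WT and differed by -0.16 in CF, a difference between genotypes that was not tested either. The WT change took the other sign under TMM factors (-0.134) and DESeq2 size factors (-0.1), so that both genotypes then went down. The CF change took the other sign with day 7 in place of day 9 (0.0717).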

How the results depend on the processing

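With 1 library per condition leaving out a library was not possible, and the spread between cultures, animals and donor pools was not measured. No paired analysis was possible because the labels give no replicate numbers, and the 4 days, which both genotypes share, are time points and not replicates. SMAD9 at day 2 in WT and MSX2 throughout are limited by few UMIs. No called difference of a member took the other sign under any alternative run, and leaving out the clusters whose median was under 3000 UMIs, an alternative chosen after seeing the data, moved no count of members called between CF and WT over all cells. Leaving out CF cluster 11, also chosen after seeing the data, moved 1 such count, that of members called higher at day 9, from 2 to 1. The 3000 UMI cut kept CF clusters 23 and 27 and WT cluster 20, which have few UMIs per cell and much SMAD7. It therefore cannot show how far SMAD7 rests on them. These 3 clusters held 316, 364 and 595 SMAD7 UMIs over all days, where single libraries held 2336 to 6516.

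The median member difference at day 2, 5, 7 and 9 was 0.617, 0.227, 0.244 and 0.452. Against SOX2-low WT cells it was 0.0852, 0.126, 0.127 and 0.172, and against SOX2-high cells 0.772, 1.303, 0.448 and 1.254. TMM factors gave 0.257, 0.0377 and 0.325 at day 5, 7 and 9, and DESeq2 size factors 0.289, 0.082 and 0.349. Equal class weights gave 0.797, 0.679 and 0.0458 at day 2, 5 and 7, and kept clusters alone 0.716 and 0.086 at day 2 and 5. At day 5 equal cell weights gave 0.506 and leaving out proliferating classes 0.279. A pseudocount of 5 CPM gave 0.466 at day 2, and a total without mitochondrial genes 0.194 at day 7.

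The count of members called higher in CF (2, 0, 2 and 2) was 0 at day 2 and 9 with a pseudocount of 5 CPM. Against SOX2-low cells it was 0, 1 and 0 at day 2, 7 and 9, where 2.54%, 7.07% and 3.2% of genes were. In that comparison 2 members were called lower at day 7, where 2.77% of genes were. The count of members called higher was 6 at day 5 and 5 at day 9 against SOX2-high cells, where 5.67% and 6.66% of genes were. Over all WT cells, TMM and DESeq2 factors each gave 1 at day 5, 7 and 9. At day 5 it was 3 with equal class weights and 1 with all deposited barcodes, with equal cell weights, without mitochondrial genes and without proliferating classes, and at day 9 it was 1 without mitochondrial genes. The count rose to 3 at day 2, 7 and 9 with equal cell weights, and to 3 at day 2 in kept clusters alone. Between day 2 and day 9, a pseudocount of 5 CPM left 1 member called higher in each genotype. TMM factors called 1 lower in WT and 3 in CF, and DESeq2 factors 2 in CF. The cause of these changes was not tested.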

Other observations

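The E proteins that ID proteins bind differed unevenly between genotypes. TCF4 had 92.16, 40.2, 46.18 and 31.29 CPM in WT and 5.59, 7.569, 9.558 and 6.439 CPM in CF at day 2, 5, 7 and 9, so that it was at least 2-fold lower in CF at all 4 days. Against SOX2-low WT cells it differed by -2.23, -2.27, -2.09 and -1.62 on the log2(CPM + 1) scale. TCF3 differed by -0.32, -0.52, 0.22 and 0.37 and TCF12 by -0.03, -0.18, 0.30 and 0.09.

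Among 7 TGF-beta target genes with enough UMIs, TGFBI, a secreted matrix adaptor, differed between CF and WT by -3.77, -3.90, -2.42 and -2.44 against all WT cells. Against SOX2-low WT cells it was higher by 0.25, 0.54, 1.79 and 1.48. SMAD2 and SMAD3, the transducers of that branch, differed by 0.41, 0.17, 0.69 and 0.52 and by 0.54, -0.20, 0.59 and -0.22.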
